A study of Homo sapiens with 16 samples.

Results

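The genes described here are 10 partners of cIAP2 that act between TNF family receptors and NF-κB: TRAF1, TRAF2, TRAF3, TRAF5, TRAF6, TRADD, RIPK1, MAP3K14, CHUK and CYLD. They were found by matching the transcript accession of each array probe to a gene symbol, and 11 of 50599 gene probes belonged to them, 2 for TRAF2 and 1 for every other gene. All 10 genes had a probe that passed the filter on signal, against 16398 of the 20503 genes with a probe. Gene expression was measured in LP-1, a human multiple myeloma line described by the study as TRAF3 deleted or mutated. The cells had been transduced with lentivirus to express cIAP2 together with eGFP (LP-1-cIAP2-eGFP) or eGFP only (LP-1-eGFP, control), and were sorted. Both lines were left untreated or given 10 nM bortezomib, a proteasome inhibitor, for 6 h or 24 h. Each of the 8 conditions had 2 biological replicates, which gave 16 single-colour arrays. How many transductions each line came from is not given in the sources used here, so the added cIAP2 and the history of a line cannot be told apart.

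TRAF proteins are adaptors that bind the cytoplasmic tails of TNF family receptors, and TRAF2 recruits the ubiquitin ligases cIAP1 and cIAP2 to them. In the non-canonical NF-κB pathway, TRAF3 holds the kinase NIK (encoded by MAP3K14) beside TRAF2 and the cIAPs, which mark NIK for degradation by the proteasome. NIK that escapes this activates IKKα, encoded by CHUK, and p100 is then processed to p52. According to the study, TRAF3 of LP-1 lacks the domain needed to interact with NIK, and LP-1 has no detectable NIK. In the canonical pathway, TRADD and RIPK1 assemble at TNF receptor 1, ubiquitin chains built by the cIAPs on RIPK1 recruit the IKK complex, and CYLD removes such chains. These steps act on proteins. The arrays measured the transcripts alone, and in bulk cells a change in RNA per cell cannot be told apart from a change in the share of cells that carry it.

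Expression is given as log2 of the quantile-normalized signal, so that a difference of 1 is a 2-fold change, and levels of different genes are not compared because every probe binds with its own strength. The arrays lay on 2 slides. Slide 1 held 6 LP-1-cIAP2-eGFP and 2 LP-1-eGFP arrays, and slide 2 the reverse. A single array stood apart before normalization. Replicate 1 of the bortezomib-treated LP-1-cIAP2-eGFP cells at 24 h had a median log2 signal of 3.18, against 5.73 to 6.64 on the others, and 35.5% of its spots were well above background, against 49.0% to 71.1%. The counts of members called at an adjusted p of 0.05 that changed without this dim array, and the values of the members that it moved most, are given with and without it; leaving it out leaves 1 array in its condition, whose spread is then taken from the other conditions. RIPK1, TRAF5, TRAF6, TRADD, MAP3K14, CHUK and CYLD, and the brighter TRAF2 probe, were well above background on all 16 arrays. TRAF3 was on 14 arrays and TRAF1 on 12, and 1 TRAF3 spot was flagged by the scanner software and left out.

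The labelled cell type was set against marker genes. Of 9 plasma cell markers, 7 were well above background on all 16 arrays (SDC1, TNFRSF17, IRF4, XBP1, CD38, MZB1 and JCHAIN), PRDM1 was on 15 and SLAMF7 on 13. The B cell markers MS4A1 and PAX5 were above background on no array, and neither were CSF1R of myeloid cells, nor COL3A1 and PDGFRB of stroma. BACH2 was on 16 arrays. The T cell marker CD2 was on 15, and on the dim array it reached 11.49, its highest value.

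Promoter windows of the members were searched for 5 short motifs, and the κB matches are shown because these genes act upstream of NF-κB. RefSeq gave 17 windows for 9 of the 10 genes (GRCh38.p14, 250 bases before to 50 after a start site); TRADD had no entry. The κB consensus, searched on both strands, was present in 3 of these windows, from TRAF3 and CYLD, and in 5.91% of all 35116 windows. The matches are shown with 30 bases each on the strand of the gene, the κB letters in capitals. The 30-base stretches lie on the plus strand. That of TRAF3 is chr14:102777406-102777435, and its κB letters begin 33 bases before the start site. Those of CYLD are chr16:50741887-50741916, with κB letters from 189 bases before one start site, and chr16:50742405-50742434, with κB letters from another start site.
TRAF3: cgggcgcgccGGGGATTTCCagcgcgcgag
CYLD upstream: ttgacagagcGGAAAGTCCCttcggccggc
CYLD at start: cccccccaccGGGGCTTCCCcatcccccga
The heat shock pairs GAANNTTC and TTCNNGAA, held by 6.77% and 7.74% of all windows, were in none of the members' windows. The antioxidant response core TGACNNNGC, on either strand, was in 2 members' windows, of CYLD and TRAF5, and in 13.35% of all windows. The C/EBP-ATF element TGATGNAA was in 1 window, of TRAF1, and in 3.62% of all windows. A match is a string of letters and not evidence of binding, and a missing match describes these windows alone.

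**Figure D1:**
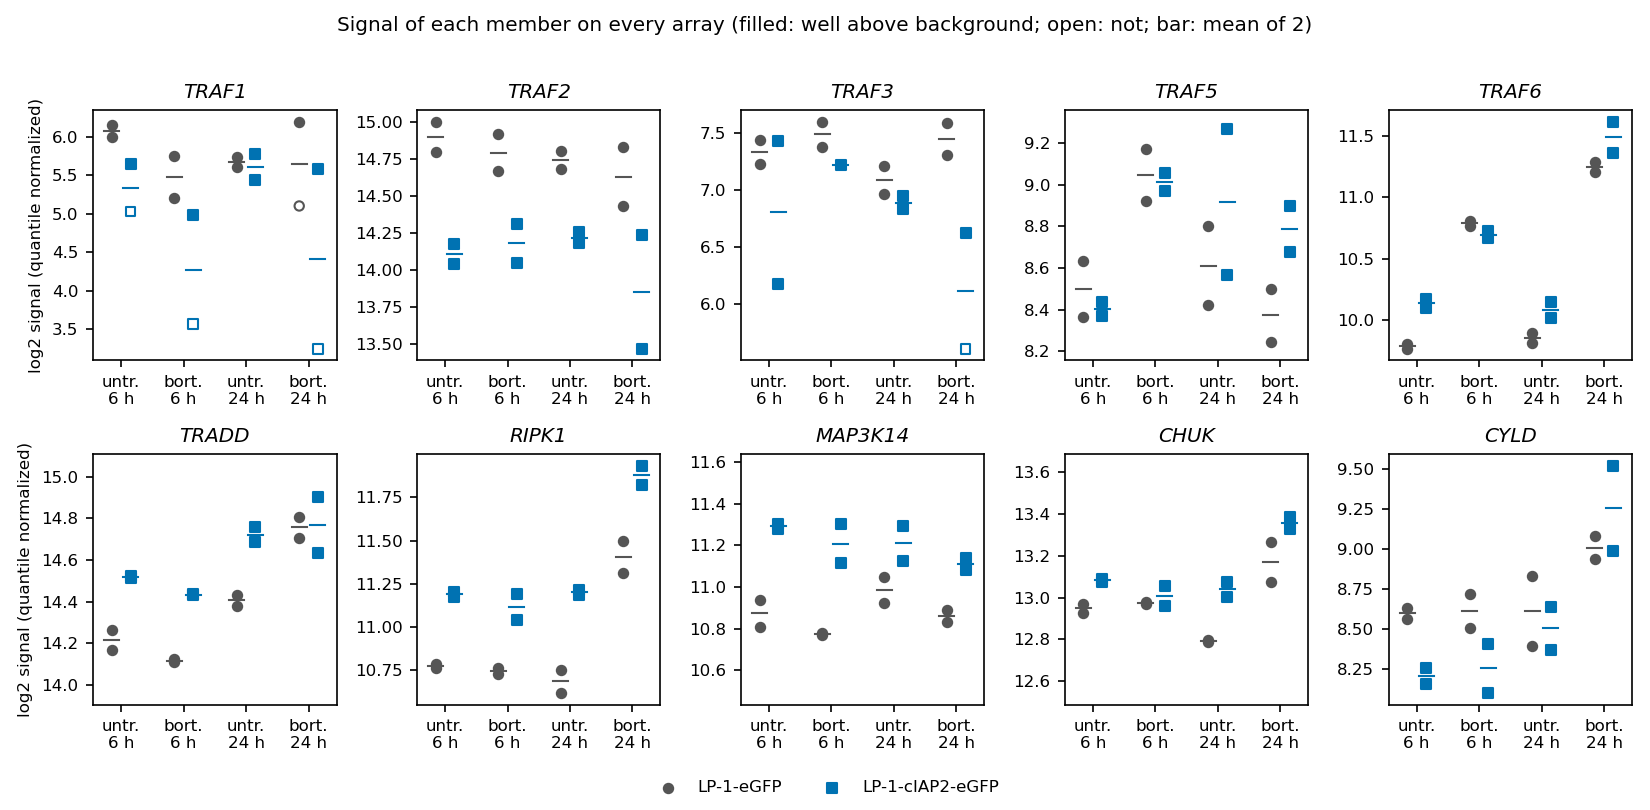
Log2 signal of the 10 genes (1 panel each, the brightest probe) on every array, in untreated (untr.) and bortezomib-treated (bort.) cells at 6 h and 24 h; circles are LP-1-eGFP, squares LP-1-cIAP2-eGFP, open symbols are spots not well above background and bars are means of 2 replicates. TRAF2 lies lower and MAP3K14 higher in LP-1-cIAP2-eGFP on every array, and TRAF6 rises with bortezomib to its highest values at 24 h.

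The first comparison asked how the partners' transcripts differed between cells with added cIAP2 and control cells, averaged over treatment and time. TRAF2 was lower in LP-1-cIAP2-eGFP, while RIPK1, MAP3K14 and TRADD were higher, all by less than 2-fold. So 4 of the 10 genes passed an adjusted p of 0.05 (limma, Benjamini-Hochberg over all probes), where 21.8% of all genes did. Without the dim array it was 5 of 10, TRAF6 added, and 30.9% of all genes. The median difference of the 10 was 0.15 on the log2 scale, and that of all genes was -0.01. TRAF1 and TRAF3 had larger differences than RIPK1 but also the widest replicate spread among the brightest probes, and neither passed.

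TRAF2, the adaptor that brings cIAP1 and cIAP2 to the receptor complex, was separated by line on every array. In LP-1-eGFP the replicates read 14.79 and 14.999 untreated at 6 h, 14.67 and 14.91 with bortezomib at 6 h, 14.80 and 14.68 untreated at 24 h, and 14.43 and 14.83 with bortezomib at 24 h. In LP-1-cIAP2-eGFP they read 14.04 and 14.17, 14.05 and 14.31, 14.25 and 14.18, and 13.47 and 14.23 in the same order. The highest LP-1-cIAP2-eGFP array thus lay below the lowest control array, and the lowest value of all was the dim array's. The difference was -0.67 (SE 0.124, adjusted p = 0.00458), and -0.58 without the dim array (adjusted p = 0.00181). Within slides, each over 2 conditions, it was -0.77 on slide 1 and -0.59 on slide 2. The second, dimmer TRAF2 probe was lower in all 4 conditions as well, with -1.24 (SE 0.428, adjusted p = 0.0857). On the dim array this probe did not rise well above background, and without that array the difference was -0.79 with a call (adjusted p = 0.005).

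RIPK1, the kinase that carries the ubiquitin chains at TNF receptor 1, was higher with cIAP2 in each of the 4 conditions with no overlap within any of them. Untreated control cells had 10.76 and 10.78 at 6 h and 10.75 and 10.62 at 24 h, and control cells with bortezomib had 10.76 and 10.73 at 6 h and 11.50 and 11.31 at 24 h. LP-1-cIAP2-eGFP cells had 11.17 and 11.20 untreated at 6 h, 11.19 and 11.22 untreated at 24 h, 11.04 and 11.19 with bortezomib at 6 h, and 11.93 and 11.82 with bortezomib at 24 h. Over all arrays the lines overlapped, because bortezomib moved both upwards at 24 h. The mean difference was 0.44 (SE 0.0641, adjusted p = 0.00111), and within slides it was 0.39 and 0.49.

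MAP3K14, which encodes NIK, was higher in LP-1-cIAP2-eGFP on every array. Its lowest, median and highest values were 11.08, 11.21 and 11.30 there and 10.77, 10.86 and 11.05 in LP-1-eGFP. The difference was small, 0.33 (SE 0.0656, adjusted p = 0.00711), and within slides it was 0.39 and 0.24. With normexp background correction it was 0.14 and did not pass (adjusted p = 0.659).

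TRADD, the adaptor of TNF receptor 1, was higher in 3 of 4 conditions without overlap. Control cells had 14.26 and 14.17 untreated at 6 h, 14.11 and 14.12 with bortezomib at 6 h and 14.43 and 14.38 untreated at 24 h, where LP-1-cIAP2-eGFP cells had 14.52 and 14.52, 14.43 and 14.44, and 14.68 and 14.76. With bortezomib at 24 h the lines overlapped, at 14.71 and 14.81 in control and 14.63 and 14.90 in LP-1-cIAP2-eGFP cells. The difference was 0.24 (SE 0.0651, adjusted p = 0.035). This call was lost when the slide was a block (0.27, adjusted p = 0.0874), with 75th percentile scaling (0.22, adjusted p = 0.244), with normexp (0.09, adjusted p = 0.785), with no filter on signal (0.24, adjusted p = 0.116), in an additive model (0.24, adjusted p = 0.105) and on leaving out any 1 of 14 of the 16 arrays (0.22 to 0.25).

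TRAF3 and TRAF1 leaned lower with cIAP2 but not past the threshold. TRAF3, the adaptor that holds NIK, had a lowest, median and highest value of 5.61, 6.83 and 7.43 in LP-1-cIAP2-eGFP over 7 arrays, and 6.97, 7.34 and 7.60 in control cells over 8. The fitted difference was -0.58 (SE 0.225, adjusted p = 0.128), but it was -1.23 on slide 1 and -0.03 on slide 2, and without the dim array -0.46 (adjusted p = 0.157). It passed with -0.71 without the other replicate of that condition (adjusted p = 0.0275), with -0.74 without replicate 2 of untreated LP-1-cIAP2-eGFP cells at 6 h (adjusted p = 0.0317) and with -0.64 in a replicate block (adjusted p = 0.0448). Whether this probe lies inside the altered part of TRAF3 in LP-1 was not determined. TRAF1, an NF-κB target that binds cIAPs through TRAF2, had 3.24, 5.23 and 5.77 in LP-1-cIAP2-eGFP and 5.10, 5.74 and 6.20 in control cells, with a difference of -0.81 (SE 0.356, adjusted p = 0.172). It was -0.52 without the dim array (adjusted p = 0.204), -1.10 with a call without the other replicate of that condition (adjusted p = 0.0107), which leaves the dim array alone there, and -0.26 with normexp (adjusted p = 0.15). On 3 LP-1-cIAP2-eGFP arrays and 1 control array TRAF1 was not well above background.

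The other genes lay closer together. CHUK, encoding IKKα, had a difference of 0.15 (SE 0.0608, adjusted p = 0.138, 95% interval 0.01 to 0.29). TRAF6, a ubiquitin ligase of interleukin 1, Toll-like and TNF family receptors, had 0.18 (adjusted p = 0.101), and 0.21 with a call without the dim array (adjusted p = 0.0167). TRAF5, an adaptor close to TRAF2, had 0.15 (interval -0.12 to 0.42, adjusted p = 0.478). CYLD, the deubiquitinase, had -0.15 (interval -0.40 to 0.10, adjusted p = 0.425), and its values in LP-1-cIAP2-eGFP were below control without overlap in untreated and treated cells at 6 h and overlapped at 24 h. At an unadjusted p of 0.05, 8 of the 10 genes passed in this comparison, where 34.7% of all genes did.

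**Figure D2:**
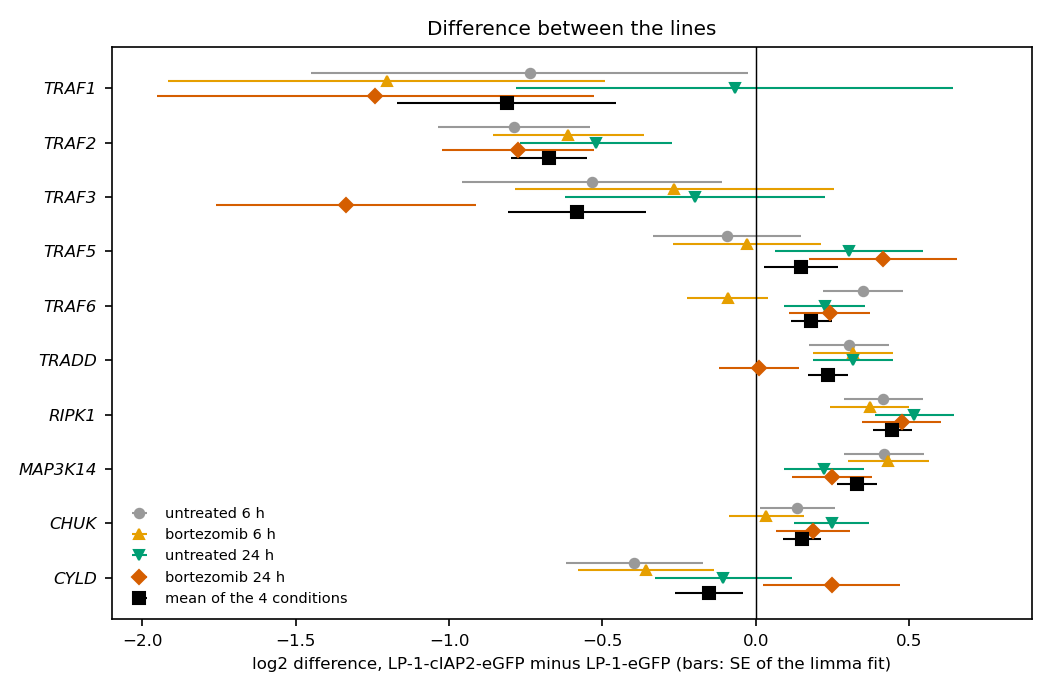
Log2 difference of LP-1-cIAP2-eGFP from LP-1-eGFP cells for each gene on the horizontal axis, in each of the 4 conditions (coloured symbols) and on average (black squares); bars are standard errors of the limma fit. TRAF1, TRAF2 and TRAF3 are below 0 and RIPK1, MAP3K14, TRADD and CHUK above 0 in all 4 conditions. TRADD is close to 0 with bortezomib at 24 h (0.01) and CHUK with bortezomib at 6 h (0.03). TRAF1 and TRAF3 have the longest bars, and they and CHUK were not called on average.

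By the thresholds in the study's methods no member was called. With an adjusted p of 0.001 and over 2-fold between the untreated lines, 0 of 10 passed (3.39% of all genes did). Taking the lines as 2 groups with limma, at an unadjusted p of 0.005 and over 2-fold, 0 of 10 passed again, against 4.48%. At an unadjusted p of 0.05 and without the fold, 5 of the 10 passed in that 2-group fit (20.2% of genes). TRAF2 had the smallest adjusted p there, 0.00374, and its difference of -0.67 was short of 2-fold.

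The second question was how bortezomib changed these transcripts in each line. At 6 h TRAF6 rose in control cells and was the only called member, and at 24 h TRAF6 and RIPK1 rose in both lines, with CYLD in LP-1-cIAP2-eGFP. No member fell past the threshold over all arrays. In control cells 1 of 10 was called at 6 h (2.87% of all genes) and 2 of 10 at 24 h (28.4%). In LP-1-cIAP2-eGFP cells 0 of 10 were called at 6 h (1.48%; 2 of 10 at an unadjusted p of 0.05, TRAF5 and TRAF6, with 13.1% of genes) and 3 of 10 at 24 h (36.4%). Without the dim array the 24 h counts were 4 of 10 in control (TRADD and CHUK added; 40.8% of all genes) and 2 of 10 in LP-1-cIAP2-eGFP cells (35.4%), and at 6 h TRAF6 was called in the latter. At 24 h the members' counts were thus close to or below that of genes in general. The median log2 difference of the members at 24 h was 0.36 in control and -0.03 in LP-1-cIAP2-eGFP cells, and that of all genes -0.03 and -0.16. Without the dim array the LP-1-cIAP2-eGFP medians were 0.10 for the members and -0.01 for all genes.

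TRAF6 had the largest change among the members that were called. Untreated control cells had 9.81 and 9.77 at 6 h and 9.81 and 9.90 at 24 h, and with bortezomib they had 10.77 and 10.81 at 6 h and 11.28 and 11.21 at 24 h. Untreated LP-1-cIAP2-eGFP cells had 10.10 and 10.17 at 6 h and 10.15 and 10.02 at 24 h, and with bortezomib they had 10.72 and 10.67 at 6 h and 11.36 and 11.61 at 24 h. Every treated array lay above every untreated one, and the 24 h arrays above the 6 h arrays. The change was 1.00 at 6 h (SE 0.132, adjusted p = 0.00714) and 1.39 at 24 h (adjusted p = 9.87e-05) in control cells, and 0.56 at 6 h (adjusted p = 0.0947) and 1.41 at 24 h (adjusted p = 6.92e-05) in LP-1-cIAP2-eGFP cells. Without the dim array the last value was 1.53. The 6 h call in control cells was lost on leaving out any 1 of its 4 arrays, with adjusted p between 0.0753 and 0.0864, while the change stayed between 0.98 and 1.02. Within slides the change in control cells was 0.98 at 6 h and 1.35 at 24 h on slide 2, and in LP-1-cIAP2-eGFP cells 0.60 and 1.34 on slide 1.

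RIPK1 at 6 h had a difference of -0.03 in control (interval -0.32 to 0.26) and -0.07 in LP-1-cIAP2-eGFP cells (interval -0.36 to 0.22). At 24 h it rose by 0.72 in control (SE 0.128, adjusted p = 0.00312) and by 0.68 in cIAP2-overexpressing cells (adjusted p = 0.00346), and by 0.62 there without the dim array (adjusted p = 0.00762). In LP-1-cIAP2-eGFP cells this call was lost with 75th percentile scaling (0.46, adjusted p = 0.0507), with normexp (0.33, adjusted p = 0.228) and with array weights (adjusted p = 0.114). The highest level of RIPK1 was therefore in LP-1-cIAP2-eGFP cells with bortezomib at 24 h, mean 11.88 ± 0.08 (SD, n = 2), followed by control cells in the same treatment, 11.40 ± 0.13, and the remaining means lay between 10.68 and 11.20.

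CYLD at 24 h had 8.64 and 8.37 in untreated and 9.52 and 8.99 in treated LP-1-cIAP2-eGFP cells, and 8.83 and 8.39 in untreated and 9.08 and 8.94 in treated control cells. Treated and untreated arrays did not overlap in either line. The change was 0.75 in LP-1-cIAP2-eGFP (SE 0.223, adjusted p = 0.0311) and 0.40 in control cells (adjusted p = 0.275). The higher treated value was the dim array's, and without it the change was 0.49 and did not pass (adjusted p = 0.153). The call was also lost with the slide as a block (0.72, adjusted p = 0.0716), with no filter on signal (adjusted p = 0.0632), with array weights (adjusted p = 0.324), and on leaving out untreated replicate 1 (0.89, adjusted p = 0.0601) or 2 (0.62, adjusted p = 0.172).

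CHUK had treated values above the untreated ones at 24 h without overlap in both lines, at 13.27 and 13.07 against 12.79 and 12.80 in control cells and 13.33 and 13.39 against 13.00 and 13.08 in LP-1-cIAP2-eGFP cells. The differences of 0.38 (adjusted p = 0.0548) and 0.32 (adjusted p = 0.0805) did not pass, and the latter was 0.03 with normexp (adjusted p = 0.908). TRADD at 24 h had 0.35 in control (adjusted p = 0.09) and 0.05 in LP-1-cIAP2-eGFP cells (adjusted p = 0.815), or in the latter 0.18 without the dim array (adjusted p = 0.297) and -0.56 with normexp (adjusted p = 0.242). TRAF5 at 6 h had 0.55 and 0.61, with no overlap of treated and untreated arrays in either line, and adjusted p of 0.418 and 0.374. MAP3K14 lay between -0.08 and -0.13 over both lines and times, with all 4 intervals within -0.42 and 0.21; with normexp it was -0.81 at 24 h in LP-1-cIAP2-eGFP cells and did not pass (adjusted p = 0.107).

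TRAF2, TRAF1 and TRAF3 did not pass in any bortezomib comparison over all arrays. TRAF2 had -0.11 in control (interval -0.67 to 0.44) and -0.37 in LP-1-cIAP2-eGFP cells (interval -0.92 to 0.19) at 24 h, and 0.01 in the latter without the dim array. TRAF1 had -1.19 in LP-1-cIAP2-eGFP cells at 24 h (adjusted p = 0.237) and -0.02 without that array. TRAF3 had -0.78 there (adjusted p = 0.206), and -0.27 without it. With the dim array as the only treated one, after leaving out replicate 2, TRAF1 had -2.36, TRAF2 -0.75 and TRAF3 -1.28. On the dim array TRAF1 and TRAF3 were not well above background, so the size of their falls there is not known.

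**Figure D3:**
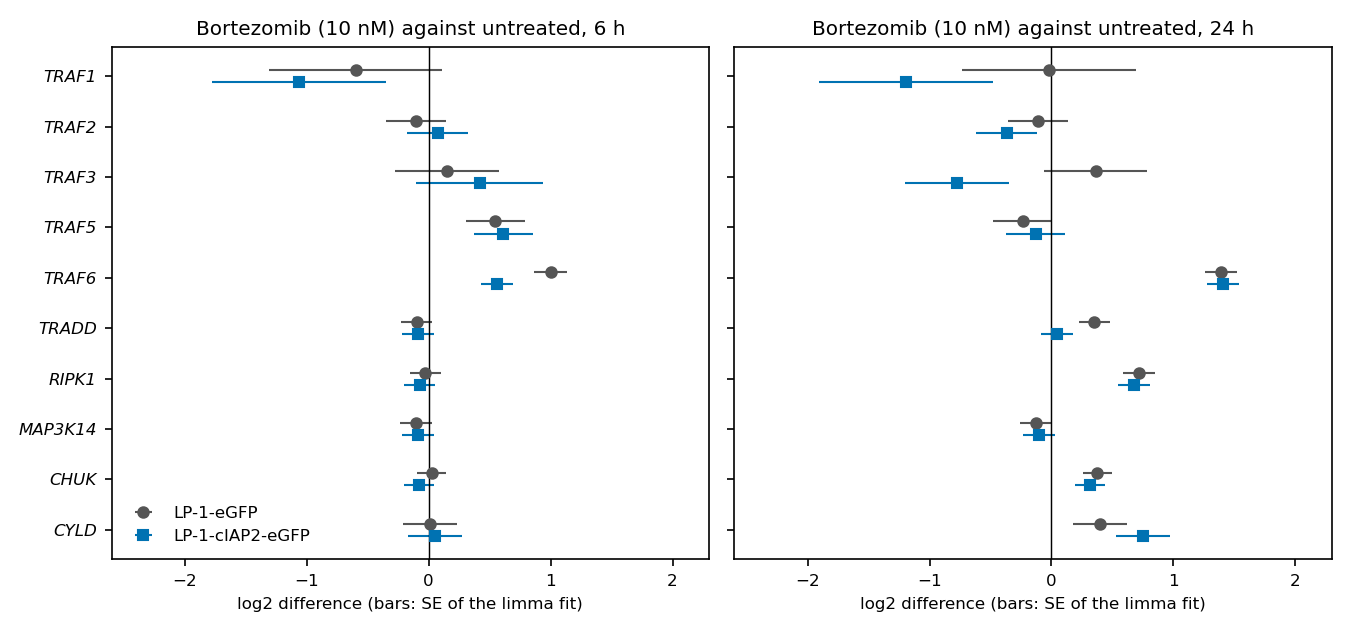
Log2 difference between bortezomib-treated and untreated cells for each gene at 6 h (left) and 24 h (right), in LP-1-eGFP (circles) and LP-1-cIAP2-eGFP (squares); bars are standard errors of the limma fit. TRAF6 lies above 0 at both times, although at 6 h it was called in LP-1-eGFP only. RIPK1 is shifted at 24 h only, and TRAF1 and TRAF3 have the longest bars. No difference of responses between the lines passed its test.

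Plasma cell markers moved in the same arrays. At 24 h of bortezomib 6 of 9 were lower and 1 higher in control cells (28.4% of all genes were called), and 7 of 9 lower in LP-1-cIAP2-eGFP cells (36.4%). The log2 of their summed signal, of which XBP1 gave the largest part, was 17.26 and 17.14 in treated against 18.80 and 18.57 in untreated control cells, and 17.21 and 17.30 against 18.76 and 18.50 in LP-1-cIAP2-eGFP cells. Between the lines 3 of the 9 markers were higher with cIAP2 (SLAMF7, SDC1 and MZB1) and CD38 was lower, where 21.8% of all genes were called. Markers of other cell types differed between the lines as well. CD3D of T cells was lower with cIAP2 (-1.14, adjusted p = 0.046), well above background on 4 of 8 arrays there and on 8 of 8 in control. HBB of erythroid cells was well above background on 5 of 8 LP-1-cIAP2-eGFP arrays and on no control array. It passed the filter on signal through untreated LP-1-cIAP2-eGFP cells alone, so its test is not reported. The part of this in the members' results was not tested.

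Whether the lines answered bortezomib differently was tested as a difference of the responses. At 6 h 0 of 10 members passed the adjusted p in limma, as did 0% of all genes, and at an unadjusted p of 0.05 it was 1 of 10 (1.54% of genes). This was TRAF6, whose rise was smaller in LP-1-cIAP2-eGFP cells by -0.44 (SE 0.187, interval -0.86 to -0.02, adjusted p = 1). At 24 h 0 of 10 passed (0.104% of genes), and 0 of 10 at an unadjusted p of 0.05 (8.71%). The interval of the difference at 24 h was -0.40 to 0.43 for TRAF6 and -0.45 to 0.37 for RIPK1, but -3.43 to 1.09 for TRAF1, or -1.78 to 1.78 around 0.00 without the dim array. The interval of TRAF1 thus held differences of over 2-fold in either direction, with and without that array.

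Time in culture was compared in untreated cells, 24 h against 6 h, over both lines. Here 0 of 10 members passed in limma (0.0122% of genes), and 0 of 10 at an unadjusted p of 0.05 (5.81%). TRAF5 had the largest value, 0.31 (interval -0.07 to 0.70), followed by TRADD with 0.20, while TRAF6 had 0.01, MAP3K14 0.02 and TRAF2 -0.02.

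The rest of the pathway was read from 5 lists with 47 genes in all, of which 42 were tested. With added cIAP2, 2 of them were higher and 6 lower than in control cells, a share close to the 21.8% of all genes, and without the dim array it was 4 and 8, beside 30.9% of all genes. RELB, the non-canonical NF-κB subunit, was lower by -1.09 (adjusted p = 8.71e-06), with a lowest, median and highest value of 13.996, 14.19 and 15.33 against 15.24, 15.32 and 16.09 in control cells. NFKB1, encoding p105/p50, was higher by 0.61 (adjusted p = 4.15e-04) and REL lower by -0.37 (adjusted p = 0.00241). Of the receptors, TNFRSF1A, to which TRADD and RIPK1 bind, was lower by -1.20 (adjusted p = 0.00128), with 5 of 8 LP-1-cIAP2-eGFP and 8 of 8 control arrays well above background, CD40 lower by -0.66 (adjusted p = 0.019) and TNFRSF13B, the APRIL and BAFF receptor TACI, higher by 0.61 (adjusted p = 0.00216). TANK, a TRAF-binding adaptor, was lower by -0.43 (adjusted p = 0.0186). The BIRC3 probe was lower by -1.16 on average (adjusted p = 7.42e-06). By the study's methods it lies in the 3′ UTR and reads endogenous cIAP2 only. Its means in LP-1-cIAP2-eGFP and control cells were 12.03 and 13.62 untreated at 6 h, and 11.99 and 13.54 untreated at 24 h. With bortezomib they were 12.65 and 13.84 at 6 h, and closer together at 24 h, 13.63 and 13.93.

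With bortezomib at 24 h, 15 of the 42 listed genes were higher and 6 lower in control cells, and with added cIAP2 it was 14 and 9, where 28.4% and 36.4% of all genes were called in either direction. Without the dim array it was 17 and 9 in control (40.8% of all genes) and 15 and 8 with added cIAP2 (35.4%). Among NF-κB subunits and inhibitors 5 of 7 were called in the same direction in both lines, where 23.3% of all genes were. It was 4 of 9 ligands and receptors, 3 of 6 other TRAF family and TRAF-binding genes, 4 of 12 ubiquitin ligases and deubiquitinases, and 1 of 8 kinases and kinase scaffolds. NFKBIA, encoding IκBα, rose by 1.27 in control (adjusted p = 8.58e-04) and 1.16 in LP-1-cIAP2-eGFP cells (adjusted p = 0.00112), and NFKBIB by 0.98 and 1.03. TBK1, a kinase that works with TANK, rose by 1.54 and 1.34, and it was called at 6 h as well with 1.27 and 1.23. TRAF3IP3, a TRAF3-interacting protein, fell from means of 11.99 to 9.08 in control cells (-2.91, adjusted p = 1.73e-05) and from 11.92 to 9.12 in LP-1-cIAP2-eGFP cells (-2.80, adjusted p = 1.04e-05), the opposite direction to TRAF6. TRAF4 fell by 1.05 and 1.08 on the log2 scale. TNFRSF13B changed by -2.45 and -2.72 and TNFRSF17, encoding the plasma cell receptor BCMA, by -1.47 and -2.16, the latter -1.36 without the dim array. OTUD7B, a deubiquitinase of TRAF3, rose by 1.16 and 1.56, and UBE2N, the ubiquitin-conjugating enzyme that TRAF6 uses for K63-linked chains, changed by -1.08 and -1.34.

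The genes whose pattern over the arrays was most like a member's were listed for the 3 members with the largest differences between the lines, as a description across arrays that share line and treatment. For TRAF2 they were DGAT1 (Pearson r = 0.968 over 16 arrays), LAMP3 (0.963) and WHRN (0.959). For TRAF1 they were BAIAP3 (0.938), STK4-DT (0.914) and ZBTB26 (0.912), and for TRAF3 CCDC180 (0.926), TIAM1 (0.926) and CBLN1 (0.916), over 15 arrays. Outside this rule, and chosen after their values were seen, the genes most like TRAF6 were PSMA1, a subunit of the proteasome (0.984 over 16 arrays), TBC1D15 (0.984) and GLA (0.983).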

How the data were processed

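Total RNA of 16 samples (8 conditions, 2 replicates each) had been hybridised to single-colour Agilent SurePrint G3 Human 8x60K v2 arrays. The deposited scanner files hold intensity values made by the authors with Feature Extraction 10.7.3.1 (per the file headers), background-subtracted and detrended; the deposited series table holds log2 values that the authors quantile normalized and centred per probe, used as an alternative (lowest r with the same array 0.998). After outlier-flagged spots were dropped, log2 signals of replicate spots were averaged and the arrays quantile normalized. A probe was kept (33731 were) where some condition had it well above background in both replicates. A model with 8 condition means was fitted with limma 3.58.1 (R 4.3.3) and p-values adjusted over all kept probes by Benjamini-Hochberg; a gene was read from its brightest probe. The spread was pooled over conditions of 2 replicates, whose number limits the precision. A condition with 1 value (1 of TRAF3, and any that lost an array) was assumed to vary like the others. Symbols came from RefSeq accessions (28174 of 50599 probes matched); the file headers name GRCh37 and the symbol table is of GRCh38.p14, so coordinates are given for promoter windows alone, in GRCh38.p14. The thresholds of the study's methods were applied with limma instead of an ordinary ANOVA, which was an alternative. Alternatives were 75th percentile scaling, normexp, other filters, blocks for replicate and slide, array weights, probe averaging, an additive model, keeping outlier spots and listed genes, markers and the second TRAF2 probe without the dim array (all added after seeing the data) and leaving out each array. The members, the lists and the tests were chosen with earlier results of these data known. Named were all 10 members; from each list, up to 4 genes called between the lines with the largest difference, and up to 2 called in both lines at 24 h of bortezomib in 1 direction with the largest smaller change. Some marker genes are not reported here.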

Additional observations from a re-analysis of the deposited data

Results flagged for a closer look

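The first replicate of bortezomib-treated LP-1-cIAP2-eGFP cells at 24 h lay far below the other 7 arrays of its line in median log2 signal (3.18). The other 7 lay between 5.96 and 6.64. The threshold for a gap of this kind is one that about 1 in 20 groups pass by chance. On it TRAF1, TRAF3 and the second TRAF2 probe were not well above background, and the lowest values of TRAF2, TRAF1 and TRAF3 over all arrays were here.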

How the results depend on the processing

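Of the member values, 33 lost and 26 gained a call over all alternatives and none of the called values changed sign; 84 uncalled values did. The line differences of TRAF2 and RIPK1 stayed called under every alternative run, with TRAF2 between -0.96 and -0.58 and RIPK1 between 0.38 and 0.47. The count of members called between the lines was 2 with normexp background correction (TRAF2 and RIPK1; 20% of all genes tested were called), 6 with only probes above background on all arrays (36.6%) and with the ordinary ANOVA (24.8%; TRAF6 and CHUK added), and 3 to 7 with 1 array left out, 7 without replicate 2 of the bortezomib-treated LP-1-cIAP2-eGFP cells at 24 h (41.9%) and 5 without replicate 1, the dim array (30.9%). For bortezomib at 24 h in LP-1-eGFP it was 4 with the filter for probes above background on all arrays (TRADD and CHUK added; 52% of all genes), and 2 to 4 with 1 array left out, 4 without either of these arrays (40.8%). For bortezomib at 24 h in LP-1-cIAP2-eGFP it was 1 with array weights (TRAF6; 12%), 4 with the same filter (CHUK added, adjusted p = 0.0133; 56.6%), and 2 to 6 with 1 array left out, 6 without replicate 2 of the treated cells (56.9%), which leaves the dim array alone in its condition and assumes that it varies like the other conditions. For bortezomib at 6 h in LP-1-cIAP2-eGFP it was 1 with that filter (7.71%) and 1 with array weights (TRAF6; 6.89%), and 0 to 1 with 1 array left out, 1 without either of the arrays named first (5.34%). For bortezomib at 6 h in LP-1-eGFP it was 0 to 1 with 1 array left out, 0 whenever it was 1 of the 4 arrays compared (0.281% to 0.343%). RIPK1 with bortezomib at 24 h in LP-1-cIAP2-eGFP was 0.46 with 75th percentile scaling (adjusted p = 0.0507) and 0.33 with normexp (adjusted p = 0.228), and not called with array weights (adjusted p = 0.114). CHUK with bortezomib at 24 h in LP-1-eGFP was called with array weights (0.38, adjusted p = 0.0467 in limma), where 31.4% of all genes were. For these changes the cause was not tested. With bortezomib at 24 h in LP-1-cIAP2-eGFP the median of all genes was -0.16 with quantile normalization and 0.03 with 75th percentile scaling. With a replicate block, 5 members were called between the lines (TRAF3 added, adjusted p = 0.0448; 24.5% of all genes) and 3 with bortezomib at 24 h in LP-1-eGFP (CHUK added, adjusted p = 0.0468; 31.6%); the share of all genes called rose from 21.8% and 28.4% in these comparisons, and from 36.4% to 39.5% with bortezomib at 24 h in LP-1-cIAP2-eGFP. The samples were treated as unpaired, because the labels give the numbers no shared source and deviations of same-numbered arrays correlated over 0.1 in 7 of 28 pairs of conditions, not in all (range -0.11 to 0.24). With 2 replicates a condition, changes of the dim probes of TRAF1 and TRAF3 were the least precise among the brightest probes, and those of the second TRAF2 probe less precise still.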
